A study of Mus musculus with 18 samples.

Results

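The respiratory chain subunits described here are nuclear genes of mouse that encode proteins of complexes I, II, III and IV of the mitochondrial respiratory chain and cytochrome c. The list held 50 genes. Of these, 48 had a probeset annotated with that gene alone, among 18193 genes measured this way in all, and each gene was followed through its brightest probeset. The measured members were 27 of 28 listed genes of complex I, 4 of 4 of complex II, 7 of 7 of complex III, cytochrome c (Cycs) and 9 of 10 of complex IV. Ndufs6 and Cox7b had no such probeset and are not analysed here. All 48 probesets were on the MOE430A chip and all 48 passed the filter on dim signals.

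Messenger RNA was measured with Affymetrix MOE430A and MOE430B chips in gracilis muscle, a thigh muscle of mixed fibre type, of male C57BL/6J mice aged 3 to 5 weeks. All mice had daily intraperitoneal injections for 10 days: the Control group had vehicle throughout, the 1D group had vehicle for 9 days and then clenbuterol for 1 day, and the 10D group had clenbuterol on all 10 days, at 1 mg per kg of body weight. Clenbuterol is an agonist of the β2-adrenergic receptor that enlarges skeletal muscle. Each group had 3 pools, each of RNA from 3 mice, and the mice of the clenbuterol and Control groups had been chosen to differ as much as possible in weight gain and in urea nitrogen of the blood. The errors given are thus between pools of chosen animals, not between single mice.

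The respiratory chain lies in the inner mitochondrial membrane and passes electrons from NADH (complex I) and succinate (complex II) through ubiquinone to complex III, then through cytochrome c to complex IV, where oxygen is reduced. Complexes I, III and IV pump protons, and the gradient drives ATP synthase. In skeletal muscle these proteins are most abundant in oxidative fibres, and several complex IV subunits have an isoform found mainly in heart and skeletal muscle. Many of the nuclear genes are known targets of the transcription factors NRF1 and GABP (also named NRF2), and of the oestrogen-related receptors.

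Promoters of members are shown because these genes are often described as sharing binding motifs, which the selection of members did not use. RefSeq promoters of build GRCm38.p6 were matched for 37 of the 48 members, and the 250 bases before each start were searched on both strands for letters typical of each factor. The NRF1 letters GCGCATGC, whose reverse complement overlaps them, were found in 5 of 37 members (13.5%), namely Ndufa6, Ndufa8, Sdhb, Cycs and Cox6a1, against 2.56% of 27025 genes. The GABP letters CCGGAAG were found in 6 (16.2%), namely Ndufb6, Ndufb7, Ndufs3, Sdhd, Uqcrh and Cox6a1, against 7.83% of all genes. The oestrogen-related receptor letters CAAGGTCA were found in Ndufs5 alone (2.7%, against 1.51%), the YY1 letters AAGATGGC in 0 members (1.83% of all genes), and the TATA letters TATAAA in 4 members (10.8%, against 14.3%). A match describes the letters and is not a measured binding site. Printed below, 5′ to 3′ along each gene, are the stretches of Cycs (chr6:50566570-50566819, minus strand), Sdhd (chr9:50603850-50604099, minus strand), Cox6a1 (chr5:115348959-115349208, minus strand) and, with none of these letters, the muscle isoform gene Cox7a1 (chr7:30183921-30184170, plus strand). Capitals mark NRF1 or GABP letters on either strand.
Cycs: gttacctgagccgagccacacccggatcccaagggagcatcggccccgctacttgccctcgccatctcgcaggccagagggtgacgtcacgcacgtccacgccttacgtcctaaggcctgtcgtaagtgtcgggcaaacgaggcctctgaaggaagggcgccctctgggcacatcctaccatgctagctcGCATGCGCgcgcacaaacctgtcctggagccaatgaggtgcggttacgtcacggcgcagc
Sdhd: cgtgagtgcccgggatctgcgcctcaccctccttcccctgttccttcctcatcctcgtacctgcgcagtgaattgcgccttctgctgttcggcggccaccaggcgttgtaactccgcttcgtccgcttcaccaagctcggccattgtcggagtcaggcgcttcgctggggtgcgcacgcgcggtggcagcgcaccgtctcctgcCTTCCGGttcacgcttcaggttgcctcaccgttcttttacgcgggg
Cox6a1: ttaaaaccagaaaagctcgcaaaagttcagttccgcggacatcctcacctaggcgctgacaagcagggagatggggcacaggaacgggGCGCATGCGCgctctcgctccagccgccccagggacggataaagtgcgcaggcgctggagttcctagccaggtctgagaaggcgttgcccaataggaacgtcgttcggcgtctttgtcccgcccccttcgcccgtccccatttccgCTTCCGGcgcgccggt
Cox7a1: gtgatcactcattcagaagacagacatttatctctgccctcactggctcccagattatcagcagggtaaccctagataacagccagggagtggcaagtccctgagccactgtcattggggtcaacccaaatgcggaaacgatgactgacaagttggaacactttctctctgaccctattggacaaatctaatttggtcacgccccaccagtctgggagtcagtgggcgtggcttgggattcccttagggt

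Before the values, 3 properties of the arrays bear on them. The median signal of an array ranged from 30.8 to 88.4 on MOE430A and from 13.2 to 37.1 on MOE430B, while the highest signals on MOE430A differed by no more than 1.23-fold. A level below is a signal given as a multiple of its own array's median, a scaling to the chip median that the paper's methods name. The MOE430A medians differed 2.87-fold, more than the highest signals did. These values are thus no reason to choose this scaling for bright probesets such as the members, and results under other scalings are given below. The pools numbered 2 of the 1D and 10D groups stood apart from the other pools of their groups. The values by complex, and of most members with pool levels given below, are also given without them. Muscle fibre markers were abundant in every pool: the summed level of 12 of 12 measured markers was 2346 to 3722 in Control pools, 1999 to 2681 in 1D pools and 1712 to 2942 in 10D pools. All 12 had lower means in 1D and in 10D than in Control, by medians of -0.25 and -0.27 log2 units, and 0 passed the test. The highest sum, 3722, was in Control pool 1 and the lowest, 1712, in 10D pool 1. Their MOE430A arrays had the lowest and the highest median signal, 30.8 and 88.4. The part of scaling in the marker changes was not tested. Fewer cells of a type and less RNA per cell cannot be told apart in pooled muscle. The 4 brown adipocyte markers summed to 1.39 to 4.78 in Control, 3.45 to 4.44 in 1D and 3.29 to 5.47 in 10D.

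The comparisons of 1D and 10D with Control ask whether mRNA for these subunits moved with short or prolonged clenbuterol. By limma with Benjamini-Hochberg adjustment over 33752 probesets, 0 of 48 members were called at an adjusted p under 0.1 in 1D against Control, where 0.456% of all probesets were called. Likewise 0 members were called in 10D against Control (background 0%), in 10D against 1D (0.0504%) and in the F test over the groups (0.216%). At an unadjusted p under 0.05, the members were Uqcrq and Cox6a2 in 1D against Control (2 of 48, background 8.55%) and Cox6a2 alone in 10D against Control (1 of 48, background 4.56%). None met it in 10D against 1D.

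Changes among the members were small and of both signs. In 1D against Control the median log2 change was 0.07, with 28 members above 0 and 20 below, and values spread from -0.75 (Cox6a2) to 0.67 (Ndufs8). That median was 0.02 without Control pool 2, 0.03 under quantile normalization and 0.12 without 1D pool 2. In 10D against Control the median was -0.09, with 15 above 0 and 33 below, from -0.84 (Cox6a2) to 0.62 (Ndufs8). Over all tested probesets these medians were 0.02 and 0.01. The median standard error of a member's change was 0.27, and 35 members at 1D and 32 at 10D lay within 1 standard error of 0. Both comparisons use the same Control pools.

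**Figure D1:**
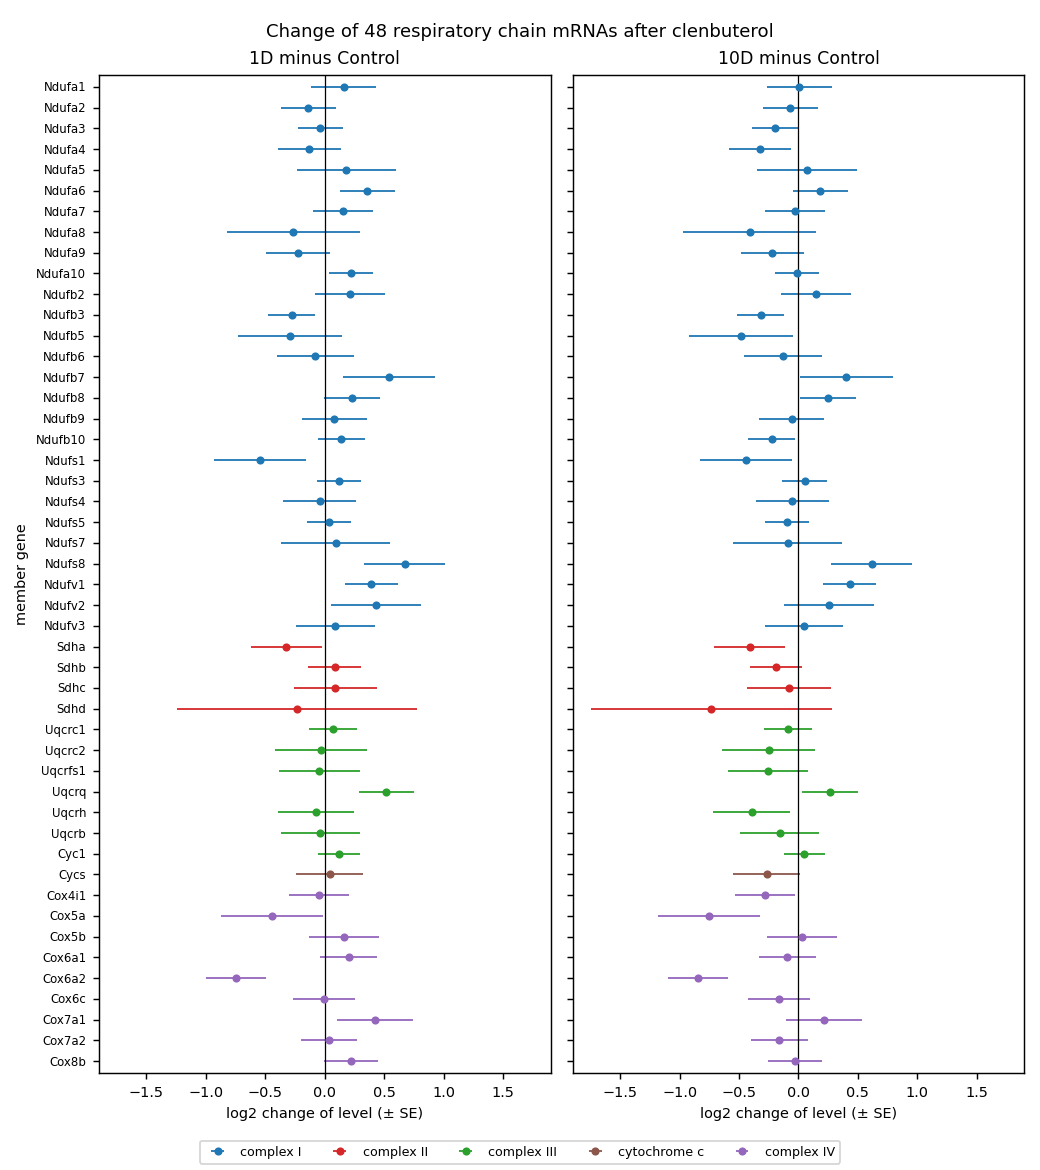
Log2 change of level (x axis) with its standard error for each of 48 members (y axis, by complex), in 1D minus Control on the left and 10D minus Control on the right, from 3 pools a group. Most points lie within about 1 standard error of 0, Cox6a2 lies farthest below 0 and Ndufs8 farthest above it, and Sdhd has the widest bar.

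With signals divided by the array median, the tilt to lower values at 10D depended on 1 pool, but it was present under each scaling tried. Against the Control mean, the median change over the 48 members was -0.26 in 10D pool 1, -0.02 in pool 2 and 0.07 in pool 3, beside -0.03, 0.07 and 0.17 in 1D pools 1, 2 and 3 and 0.03, -0.07 and 0.05 in Control pools. The array of 10D pool 1 had the highest median signal, 88.4. Without it, 25 of 48 members were above Control at 10D, in place of 15, and the median change was 0.05. Under quantile normalization all 3 10D pools were below 0, with medians of -0.12, -0.17 and -0.05, and 36 of 48 members were below Control. The median change at 10D was -0.10 there, -0.12 with trimmed mean scaling and -0.13 with scaling to the median of tested probesets. In 10D against 1D, 43 of 48 members (89.6%) had the lower mean in 10D, where 51.1% of all tested probesets and 58.5% of 1010 MOE430A probesets at least as bright as the dimmest member did. The median difference was -0.16 log2 units, but -0.05 without 10D pool 1 and -0.08 without 1D pool 3. The count of 43 was 30 without 10D pool 1, 33 or 34 without 1D pool 2, 1D pool 3 or 10D pool 2, 44 without 10D pool 3 and 46 without both pools numbered 2.

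Complex I takes electrons from NADH. Its 27 members, among them Ndufa4, which is now often placed in complex IV, had a median change of 0.09 at 1D, with 17 above Control, and of -0.05 at 10D, with 11 above. The range ran from -0.54 (Ndufs1, an iron-sulphur subunit) to 0.67 at 1D and from -0.48 (Ndufb5, a membrane arm subunit) to 0.62 at 10D. Without both pools numbered 2 the medians of complex I were 0.09, with 18 above Control, and -0.04, with 11 above. Ndufs8, an iron-sulphur protein near the ubiquinone site, had levels of 36.1, 45.2 and 42.1 in Control pools 1, 2 and 3, of 43.4, 95.0 and 67.5 in 1D pools and of 46.0, 97.6 and 55.2 in 10D pools. All 3 pools of 10D lay above all Control pools, while 1D pool 1 lay below the highest Control pool. One member of 48 had 10D pools wholly above Control, beside 5.76% of all probesets. The log2 change of Ndufs8 was 0.67 ± 0.34 (SE) at 1D (adjusted p = 0.64) and 0.62 ± 0.34 at 10D (adjusted p = 1.00). Without both pools numbered 2 it was 0.40 ± 0.22 and 0.30 ± 0.22. Of the other bright probesets of Ndufs8, 1434579_x_at changed by 0.73 at 1D and 0.63 at 10D. The smaller changes of 1423907_a_at were 0.30 and 0.17. On both of these probesets the 10D pools overlapped Control.

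Ndufv1, the subunit that binds NADH and flavin mononucleotide, had levels of 28.3, 33.6 and 40.7 in Control, 39.5, 48.8 and 45.4 in 1D and 41.5, 56.1 and 40.6 in 10D. Control pools 1 and 2 were lower than every treated pool, and Control pool 3 overlapped both groups. Its log2 change was 0.39 ± 0.22 at 1D (adjusted p = 0.68) and 0.43 ± 0.22 at 10D (adjusted p = 1.00), or 0.32 ± 0.20 and 0.28 ± 0.20 without both pools numbered 2. Its probesets disagreed: 1456015_x_at changed by 0.40 at 1D and 0.30 at 10D, whereas 1415967_at changed by -0.31 and -0.53, with every 10D pool below every Control pool. Another complex I member, Ndufa10, is named because its 1D pools did not overlap Control. Its levels were 36.8, 37.0 and 38.5 in Control, 40.4, 43.6 and 47.2 in 1D and 32.1, 39.6 and 40.2 in 10D. All 1D pools thus lay above all Control pools, as they did for 2 of 48 members (Ndufa10 and Uqcrq; background 9.6%), but the change was only 0.22 ± 0.18 log2 units (adjusted p = 0.81).

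Complex II oxidises succinate and is also an enzyme of the tricarboxylic acid cycle. Its 4 members had a median change of -0.08 at 1D and -0.30 at 10D, with all 4 below Control at 10D. On these brightest probesets both rested on the pools numbered 2: without them the medians were 0.27 and 0.06, with 3 members above Control at 1D and 2 at 10D. A second bright probeset of Sdhc, 1448630_a_at, differed, with changes of -0.65 and -0.89 against 0.09 and -0.08 on the brightest. Its levels were 31.8, 28.1 and 26.5 in Control, 25.5, 9.95 and 24.3 in 1D and 23.0, 8.11 and 20.0 in 10D. There all treated pools, not only those numbered 2, lay below all Control pools. Sdha, the flavoprotein, had levels of 73.6, 59.1 and 67.8 in Control, 63.7, 37.7 and 62.6 in 1D and 67.9, 34.2 and 54.1 in 10D. In both treated groups pool 2 was lowest, pool 1 and 1D pool 3 were within the Control range, and 10D pool 3 was just below it. The log2 change was -0.32 ± 0.30 at 1D and -0.41 ± 0.30 at 10D (adjusted p = 0.83 and 1.00), and -0.08 ± 0.19 and -0.14 ± 0.19 without both pools numbered 2. Sdhb, the iron-sulphur subunit, had levels of 57.7, 61.3 and 71.2 in Control, 66.9, 54.3 and 82.4 in 1D and 60.0, 46.6 and 60.6 in 10D, and the groups overlapped. Its changes were 0.08 ± 0.22 and -0.19 ± 0.22, or 0.23 ± 0.19 and -0.07 ± 0.19 without both pools numbered 2.

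Sdhd, a membrane anchor of complex II, had the largest departure of pool 2 among the members and is named for that, after its values were seen. Its levels were 34.3, 32.9 and 28.1 in Control, 49.7, 7.06 and 55.4 in 1D and 54.2, 3.34 and 38.2 in 10D. Pools 1 and 3 of both treated groups were above all Control pools, and pool 2 was far below them. With all pools the log2 change was -0.23 ± 1.01 at 1D and -0.73 ± 1.01 at 10D. Without both pools numbered 2 it was 0.73 ± 0.20 at 1D (limma, adjusted p = 0.17) and 0.52 ± 0.20 at 10D (adjusted p = 0.57), so the sign turned, still with no call. A second probeset of Sdhd, 1437489_x_at, was dim, at levels of 2.63 to 4.26, and did not fall in pool 2. It gave 4.26 in 1D pool 2 and 3.37 in 10D pool 2, the highest of their groups.

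Complex III moves electrons from ubiquinol to cytochrome c. Its 7 members had a median change of -0.03 at 1D, with 3 above Control, and of -0.16 at 10D, with 2 above. Without both pools numbered 2 the medians were 0.19, with 5 above, and -0.05, with 3 above. Uqcrq, a small subunit of the complex, had levels of 45.2, 40.0 and 54.1 in Control, 63.2, 72.9 and 62.4 in 1D and 41.6, 67.9 and 60.0 in 10D. All 1D pools were above all Control pools, and 10D pool 1 fell among the Control pools. The log2 change was 0.52 ± 0.23 at 1D, with an unadjusted p of 0.049 and an adjusted p of 0.58 in limma, and 0.26 ± 0.23 at 10D, or 0.45 ± 0.21 and 0.12 ± 0.21 without both pools numbered 2. Uqcrh, the hinge protein that joins cytochrome c1, had levels of 46.4, 48.0 and 46.1 in Control, 54.2, 30.8 and 52.8 in 1D and 44.7, 22.0 and 46.0 in 10D. Every 10D pool lay below every Control pool, but pools 1 and 3 by little. Uqcrh and Cox6a2 were the 2 of 48 members with this order (background 4.52%), and the change of Uqcrh was -0.40 ± 0.32 (adjusted p = 1.00), or -0.05 ± 0.16 without both pools numbered 2. Its other bright probeset, 1453229_s_at, on the MOE430B chip, changed by 0.24 at 1D, with all 1D pools above Control, and by -0.32 at 10D.

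Cytochrome c1 (Cyc1), the haem protein of complex III that reduces cytochrome c, varied little: 44.5, 50.6 and 50.5 in Control, 54.7, 53.2 and 50.4 in 1D and 48.4, 49.2 and 53.0 in 10D. Group means were 48.6 ± 3.53, 52.8 ± 2.17 and 50.2 ± 2.42 (SD, n = 3 pools) in Control, 1D and 10D, and the pools overlapped. Cycs, the mobile carrier between complexes III and IV, had levels of 131, 97.4 and 113 in Control, 93.9, 151 and 110 in 1D and 64.8, 107 and 119 in 10D. The groups overlapped, and 10D pool 1 was the lowest of the 9. Its log2 change was 0.04 ± 0.28 at 1D and -0.27 ± 0.28 at 10D, or -0.15 ± 0.26 and -0.36 ± 0.26 without both pools numbered 2. The other bright probesets of Cycs differed from this at 1D. On 1422483_a_at the levels were 39.4, 45.1 and 50.3 in Control and 66.2, 62.4 and 88.6 in 1D, a log2 change of 0.68 with an unadjusted p of 0.026 and an adjusted p of 0.49 in limma. On 1422484_at they were 42.1, 39.5 and 49.3 in Control and 54.8, 61.8 and 60.5 in 1D, a change of 0.44 with an unadjusted p of 0.038 and an adjusted p of 0.55. On both, all 1D pools lay above all Control pools, while the changes at 10D were 0.13 and -0.09.

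Complex IV passes electrons to oxygen. Its 9 members had a median change of 0.04 at 1D, with 5 above Control, and -0.16 at 10D, with 2 above. Without both pools numbered 2 the medians were -0.02, with 4 above, and -0.26, with 0 above. Cox6a2, the isoform of heart and skeletal muscle, had levels of 145, 119 and 117 in Control, 81.1, 52.7 and 99.5 in 1D and 62.1, 74.1 and 75.9 in 10D. All 6 treated pools were below all 3 Control pools, and Cox6a2 was the 1 member of 48 with this order at 1D (background 7.23%). Means were 127 ± 15.4 in Control, 77.8 ± 23.6 in 1D and 70.7 ± 7.50 in 10D (SD, n = 3 pools). The log2 change was -0.75 ± 0.25 at 1D, 0.595-fold of Control, with an unadjusted p of 0.014 and an adjusted p of 0.41 in limma. At 10D it was -0.84 ± 0.25, 0.557-fold, with an unadjusted p of 0.0073 and an adjusted p of 1.00. Without both pools numbered 2 the changes were -0.49 ± 0.20 and -0.88 ± 0.20 (adjusted p = 0.37 and 0.36).

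A second probeset of Cox6a2, on MOE430B, did not follow the first, on MOE430A. These chips are separate arrays, each scaled to its own median. On 1457633_x_at the levels were 90.6, 68.9 and 76.6 in Control, 56.2, 155 and 74.3 in 1D and 38.5, 83.7 and 79.1 in 10D, and the log2 change was 0.15 at 1D and -0.30 at 10D. Pool 1 of each treated group was below all Control pools on both probesets. Pool 2 of 1D was the lowest of all pools on the first probeset and the highest on the second. Cox6a1, the isoform of most other tissues, had levels of 30.9, 37.8 and 28.3 in Control, 41.7, 38.6 and 31.2 in 1D and 23.9, 39.2 and 28.9 in 10D, with overlapping groups and changes of 0.20 ± 0.24 and -0.09 ± 0.24, or 0.17 ± 0.21 and -0.29 ± 0.21 without both pools numbered 2.

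The other isoform pair is Cox7a1, of muscle, and Cox7a2, of most tissues. Cox7a1 had levels of 42.5, 43.3 and 41.7 in Control, 43.1, 71.6 and 59.5 in 1D and 31.5, 77.8 and 49.1 in 10D. The Control pools lay close together, most treated pools were above them and 10D pool 1 was below, with changes of 0.42 ± 0.32 and 0.22 ± 0.32 (adjusted p = 0.78 and 1.00). Without both pools numbered 2 these were 0.25 ± 0.23 and -0.11 ± 0.23, so the sign at 10D turned. Cox7a2 had levels of 119, 102 and 142 in Control, 108, 142 and 121 in 1D and 81.3, 123 and 122 in 10D, and its changes were 0.04 ± 0.24 and -0.16 ± 0.24, or -0.07 ± 0.23 and -0.26 ± 0.23 without both pools numbered 2. Cox8b, a muscle isoform in rodents, had levels of 65.0, 67.5 and 75.1 in Control, 92.1, 69.5 and 81.1 in 1D and 51.4, 82.3 and 73.5 in 10D, with overlapping groups and changes of 0.22 ± 0.23 and -0.03 ± 0.23, or 0.32 ± 0.20 and -0.17 ± 0.20 without both pools numbered 2. The change of Cox6a2 was not tested against those of the other muscle isoforms.

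Cox5a, a structural subunit of complex IV, had levels of 142, 121 and 126 in Control, 116, 53.3 and 139 in 1D and 88.6, 41.9 and 123 in 10D. Pool 2 was the lowest in each treated group, and 1D pool 3 and 10D pool 3 were within the Control range. Its log2 change was -0.44 ± 0.43 at 1D and -0.75 ± 0.43 at 10D (adjusted p = 0.84 and 1.00), and -0.02 ± 0.21 and -0.31 ± 0.21 without both pools numbered 2. Its other bright probesets changed less, by -0.10 and -0.26 on 1415933_a_at and by 0.02 and -0.21 on 1439267_x_at.

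**Figure D2:**
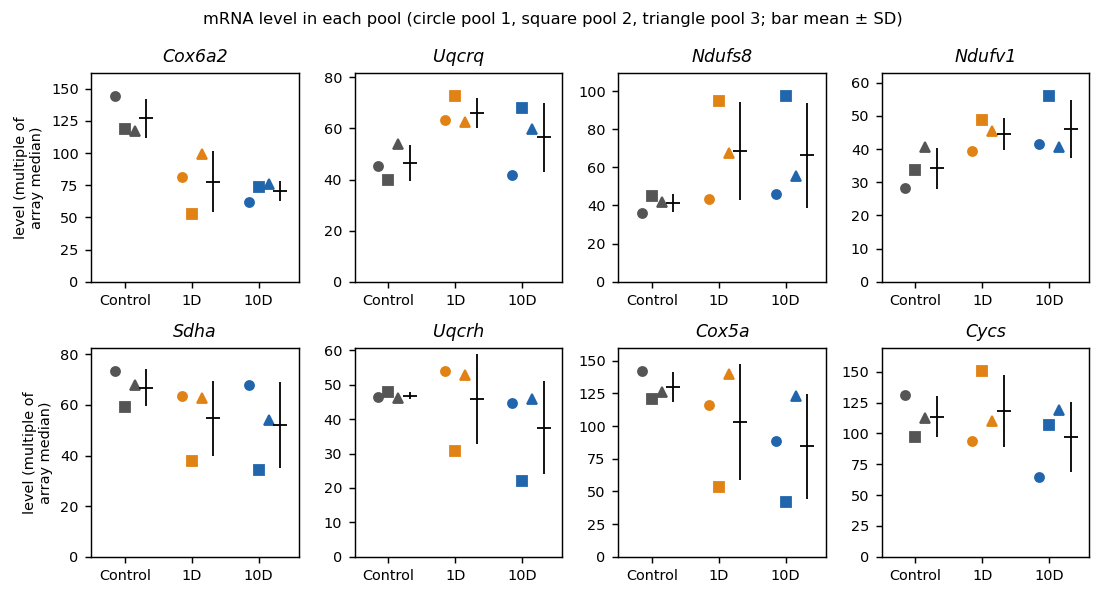
Level of 8 members in each pool, as a multiple of the array median (y axis, from 0), in Control, 1D and 10D (x axis), with the mean ± SD of 3 pools beside the points. Cox6a2 is lower in all 6 treated pools than in any Control pool, whereas Sdha, Uqcrh and Cox5a are low in the pools numbered 2.

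By complex, the pools did not move as one. In 1D pool 2 the median change from the Control mean was 0.13 for complex I, -0.58 for complex II, 0.14 for complex III and 0.23 for complex IV. In 10D pool 2 it was 0.08, -0.79, 0.02 and 0.12 in the same order. In 10D pool 1 it was -0.22, 0.16, -0.14 and -0.55, so complex II was highest there and complex IV lowest of the complexes.

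**Figure D3:**
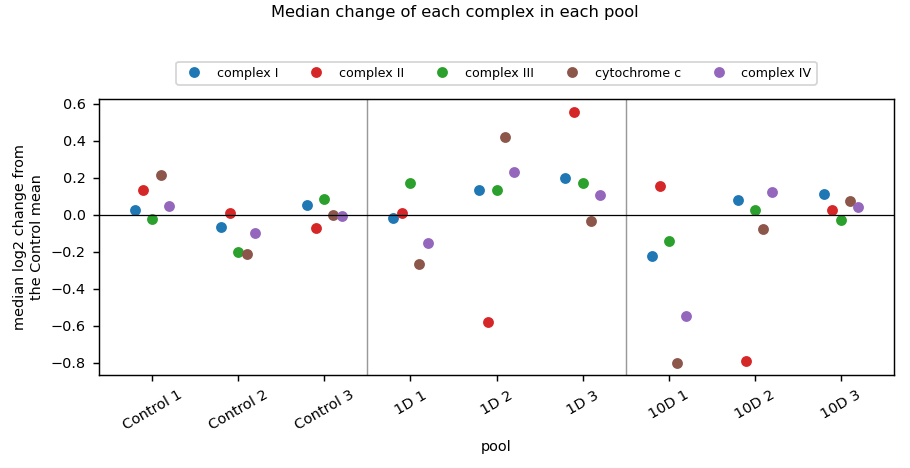
Median log2 change from the Control mean (y axis) of the members of each complex in each of the 9 pools (x axis, vertical lines part Control, 1D and 10D); cytochrome c is 1 gene. Complex II is at -0.58 and -0.79 in the pools numbered 2 of 1D and 10D, and complex IV is at -0.55 in 10D pool 1.

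The pools numbered 2 of 1D and 10D departed from pools 1 and 3 of their group along the same genes. The departure is the log2 level of pool 2 minus the mean of pools 1 and 3. Its median size over the members was 0.54 in 1D and 0.61 in 10D, against 0.14 in Control. It ran from -2.89 in 1D and -3.77 in 10D (Sdhd in both) to 1.18 and 1.42 (Ndufs7, an iron-sulphur subunit of complex I). Across the 48 members the departures of 1D and 10D correlated with r = 0.94 and had the same sign in 42, while those of 1D and Control had r = -0.24. Pools share no mice, but departures on one chip share its probes, and r was 0.86 across the 1010 probesets of like brightness and 0.35 across all 33752. The 5 members at least 1 log2 unit low in both were Ndufa8, Ndufb5, Ndufs1, Sdhd and Cox5a (background 5.53%). The 12 members at least 0.5 log2 units high in both (background 9.19%) included Ndufs7, Ndufs8, Ndufa5 and Ndufb7. The cutoffs differ by direction, so these counts cannot be compared with each other. Both backgrounds are over all 33752 probesets. The share among the 1010 of like brightness, whose departures also went together, was not counted. Ndufa8, an accessory subunit of complex I, had levels of 23.6, 25.1 and 25.6 in Control, 30.1, 7.53 and 38.7 in 1D and 26.9, 10.4 and 23.0 in 10D. Its log2 change was -0.26 ± 0.56 at 1D and -0.41 ± 0.56 at 10D. Without both pools numbered 2 these were 0.46 ± 0.18 (limma, adjusted p = 0.36) and 0.01 ± 0.18, so the sign turned with no call.

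**Figure D4:**
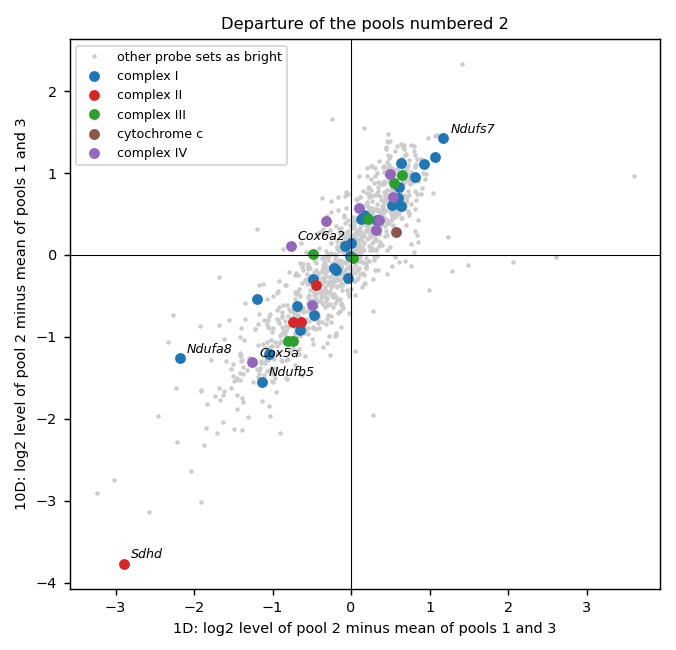
Departure of pool 2 from pools 1 and 3 in 1D (x axis) and 10D (y axis), in log2 units, for 48 members by complex and for the other MOE430A probesets of like brightness in grey. The members lie along the diagonal, from Sdhd at -2.89 and -3.77 to Ndufs7 at 1.18 and 1.42, as do the grey points.

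The spread between pools was larger after treatment. The median SD of a member's log2 level was 0.15 in Control, 0.35 in 1D and 0.44 in 10D, beside 0.16, 0.29 and 0.40 for probesets of like brightness and 0.29, 0.40 and 0.44 for all tested. The SD exceeded that of Control for 40 of 48 members in 1D and 41 in 10D, and the share of other probesets that did so was not counted. Values of the Control pools were therefore the most alike, and those of the treated pools carry most of the error.

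Probesets of a single gene often disagreed in those pools. The members had 98 tested probesets, of which 0 were called in any comparison. For 23 members more than 1 probeset was bright, and in 12 of these some probesets departed upward and others downward in pool 2 of both treated groups. The median gap between departures of a gene's probesets was 0.87 in 1D and 1.02 in 10D, against 0.26 in Control. Ndufs7 gave 120 in 1D pool 2 and 118 in 10D pool 2 on 1424313_a_at, above its other pools, and 27.6 and 26.7 on 1451312_at, below its other pools. Ndufv1 gave 48.8 and 56.1 on 1415966_a_at, the highest of their groups, and 19.4 and 19.3 on 1415967_at, the lowest. The third probeset of Ndufv1, 1456015_x_at, lay between 42.2 and 42.7 in 1D, against 29.1 to 37.8 in Control, and showed no such split.

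The sign of the log2 change differed between probesets of a gene for 12 of these 23 members at 1D and for 6 at 10D. The departure also went with the type of probeset. The 32 probesets with the plain suffix departed downward, with medians of -0.38 in 1D and -0.31 in 10D and 21 below 0 in both. The 47 with the suffix a, s or x, which mark probes shared between transcripts, departed upward, with medians of 0.31 and 0.43 and 29 above 0 in both. This split was not counted over other probesets of like brightness, so it is not shown to be particular to the members. The part of probe design in this was not tested.

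**Figure D5:**
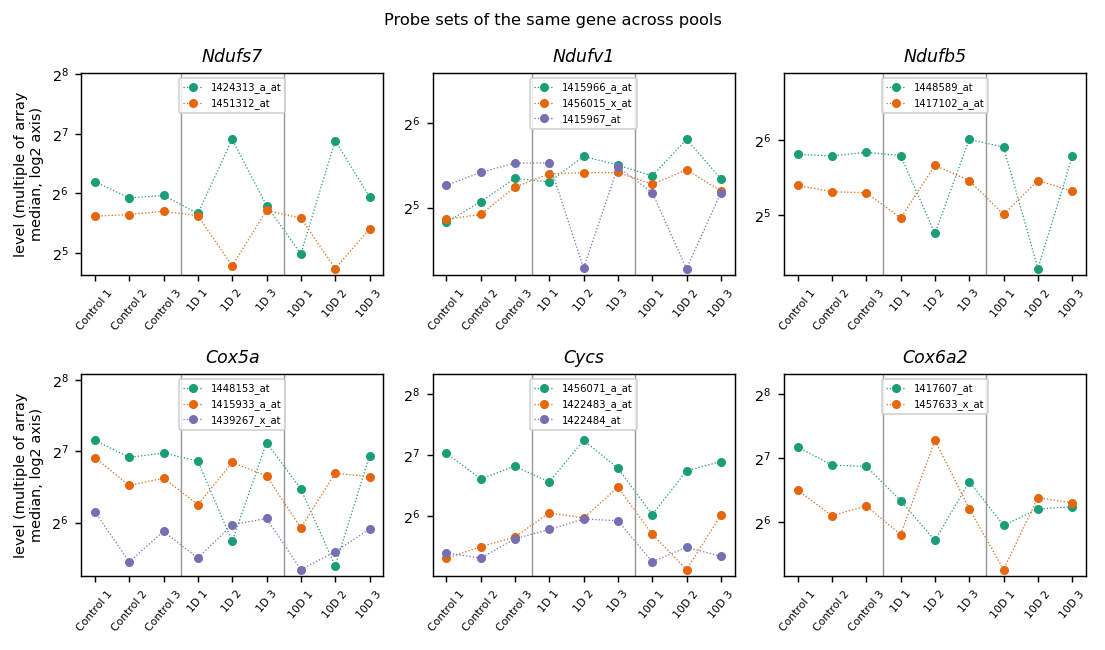
Level of the bright probesets of 6 members in each of the 9 pools (x axis), as a multiple of the array median on a log2 axis; dotted lines only link the points of a probeset, and heights of different probesets are not comparable. In the pools numbered 2 of 1D and 10D, probesets of Ndufs7, Ndufv1, Ndufb5 and Cox5a move in opposite directions.

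Other genes of oxidative phosphorylation, each followed through its brightest probeset, had median changes of both signs, and 0 were called in any comparison. Of the other respiratory chain subunits, 18 of 28 were measured, with median changes of 0.16 at 1D and 0.03 at 10D. Uqcr10, a small complex III subunit like Uqcrq, had levels of 32.9, 33.3 and 40.2 in Control and 47.3, 62.8 and 53.1 in 1D, so that all 1D pools were higher, with a log2 change of 0.61 ± 0.22 and an adjusted p of 0.43. ATP synthase subunits (15 of 17 measured) had medians of 0.13 and -0.14, and assembly factors of the chain (37 of 39) had 0.10 and 0.10. In that list the complex III assembly factor Uqcc2 was at 0.65 ± 0.27 at 1D and 0.84 ± 0.27 at 10D (adjusted p = 0.54 and 1.00). Regulators of respiratory chain genes (16 of 16) had medians of 0.13 and -0.02. In their own test over all probesets, the authors list the regulator Yy1 as differentially expressed, with more mRNA at both times. Genes that pass electrons to ubiquinone or make it (13 of 14) had medians of -0.40 and -0.17, with 2 and 3 genes above Control.

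Tricarboxylic acid cycle enzymes (16 of 17 measured) had medians of -0.12 and -0.26, with 5 and 2 genes above Control. Idh2, mitochondrial isocitrate dehydrogenase, had levels of 16.4, 17.0 and 13.3 in Control, 12.9, 1.54 and 9.22 in 1D and 10.4, 2.11 and 6.47 in 10D. All 6 treated pools were lower than any Control pool, pool 2 by most, and the log2 change was -1.44 ± 0.76 and -1.57 ± 0.76 (adjusted p = 0.65 and 1.00). Carriers and porins (10 of 11) had medians of -0.23 and -0.33. Slc25a5, an ADP/ATP carrier of the inner membrane, had levels of 8.56, 8.16 and 8.98 in Control, 20.1, 14.5 and 15.3 in 1D and 10.3, 7.55 and 10.1 in 10D. The 1D pools were all higher than Control, with a log2 change of 0.94 ± 0.21 and an adjusted p of 0.15, and 10D pool 2 was below Control.

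Markers of other cells were tested beside these values. The macrophage and neutrophil list (6 of 8 genes tested) had 1 gene called, S100a8, at a log2 change of 4.34 in 1D against Control (limma, adjusted p = 0.044). Its levels were low throughout, 2.05 to 2.78 in 1D pools against 0.0354 to 0.205 in Control pools. The list summed to 13.6 to 20.8 in Control, 19.4 to 27.8 in 1D and 17.1 to 23.7 in 10D. In the other lists 0 markers were called. Median changes at 1D and 10D were -0.49 and -0.80 for white adipocyte markers, 0.14 and -0.04 for endothelium, -0.37 and -0.14 for fibroblasts and matrix, -1.10 and -0.27 for keratinocytes, 0.02 and 0.38 for nerve, 0.25 and 0.03 for erythroid cells, and -0.12 and -0.18 for slow fibres. They were 0.56 and 0.23 for macrophages and neutrophils and 0.32 and 0.94 for brown adipocytes, whose 4 markers were all above Control at 10D at the low levels given above. White adipocyte markers summed to 307 to 447 in Control, 279 to 455 in 1D and 240.5 to 415 in 10D. The part of cell composition in the members' values was not tested.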

How the data were processed

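RNA pools were hybridised to 18 arrays (9 MOE430A, 9 MOE430B). The authors quantified each array with MAS 5.0 and deposited signal intensities on a linear scale with no scaling between arrays; settings are not given in the sources used here. An array with no chip in its label was read as MOE430A, and the table that held it fitted.

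In R 4.3.3 with limma 3.58.1, each intensity was divided by the array median, a value of 0 (18 values) was set to 0.05, and log2 was taken. Of 45037 probesets, 33752 were tested, those whose mean log2 signal reached percentile 25 on their chip. A linear model of 3 groups (6 residual degrees of freedom) with eBayes and an intensity trend gave two-sided contrasts and an F test. P-values were adjusted by Benjamini-Hochberg over both chips and called under 0.1. The methods name a linear model per probeset, which was run as an alternative.

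Members and lists were chosen with earlier results of these data known. Pool values are given for called members, the 2 with the smallest p in each contrast and complex, isoform pairs, Cox8b and Cycs, and others are named after their values were seen. The number of pools limits precision. The fit was tested on simulated data. Alternatives changed the scaling, filter, offset, variance model, adjustment, block, probeset summary and pools.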

Additional observations from a re-analysis of the deposited data

Results flagged for a closer look

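By group means, 13 of 48 members were above Control at 1D and below it at 10D, and 1 of them, Ndufb10, was so in every pool. The share of all probesets with either order was not counted, so neither count can be set against a background. Ndufb10 was picked from the 48 by this order. Ndufb10, an accessory subunit of complex I, had levels of 53.5, 42.5 and 55.6 in Control pools, 55.6, 55.0 and 55.4 in 1D pools and 38.0, 42.6 and 48.9 in 10D pools. Every 1D pool was above and every 10D pool below the mean of the Control pools, but 10D pools 2 and 3 lay within the Control range. The log2 difference of 10D minus 1D was -0.37 ± 0.20 (SE), with an unadjusted p of 0.089 and an adjusted p of 0.97 in limma, so it was not called.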

How the results depend on the processing

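Members called were 0 in each contrast and the F test under all 21 alternatives, 1 of which (leaving out both pools numbered 2 of 1D and 10D) was chosen after seeing the data. The 42 log2 changes of the 14 members picked by the naming rule kept their side of the threshold in all 882 comparisons, and none larger than its standard error turned sign. Their lowest adjusted p was 0.26, for Cox6a2 at 1D under quantile normalization. Sdhd, named after its values were seen and not among them, had 0.17 at 1D without both pools numbered 2. The count of all probesets called at 1D, 154 here, was 52 without an intensity trend, 100 in the methods' model, 93 with probesets averaged per gene, 24 to 435 with 1 pool left out and 599 without both pools numbered 2. That at 10D, 0 here, was at most 5. That of 10D against 1D, 17 here, was 35 with trimmed mean scaling, 43 with quantile normalization, 5 without a trend, 1 to 75 with 1 pool left out and 103 without both pools numbered 2. That of the F test, 73 here, was 24 without a trend, 31 in the methods' model, 7 to 242 with 1 pool left out and 336 without both pools. The medians over members moved by no more than the SD between pools, 0.144. That at 1D, 0.07, was 0.02 to 0.12 with 1 pool left out, that at 10D, -0.09, was -0.16 to 0.05, and that of 10D against 1D, -0.16, was -0.22 to -0.05. With the replicate number as a block (replicate block), members called were 0 and probesets called were 209, 3 and 17. Same-numbered deviations of 1D and Control correlated at 0.02, -0.04 and 0.00, so their numbers showed no pairing. Those of 10D and 1D correlated at 0.24, 0.35 and 0.04, so the pools numbered 1 and 2 were alike in part. In all, 5 of 9 pools were closest to their own number, and what equal numbers share was not tested. With 3 pools a group and a median standard error of 0.27, changes of the size seen in most members were not detectable. Signal over background and RNA quality controls were not analysed here.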
